A study of Mus musculus with 9 samples.

Results

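Collagens, laminin chains, integrin chains and fibronectin were followed by RNA-seq in the mouse mammary carcinoma line 4T1 at day 2 of treatment. The genes were taken by name: collagen chains (symbols of the form Col, number, a, number), laminin chains (Lama, Lamb and Lamc), integrin chains (Itga and Itgb with a number, and Itgal, Itgam, Itgav, Itgax, Itgae and Itgad) and Fn1. They came to 86 of 52306 named genes, with 468 transcripts: 44 collagens, 11 laminin chains, 18 integrin alpha chains, 9 integrin beta chains, Fn1, and 3 genes (Itgb1bp1, Itgb1bp2 and Itgb3bp) whose symbols begin like an integrin but which encode other proteins. The 9 libraries formed 3 groups of 3: cells given MK1775 (adavosertib, which inhibits the kinase Wee1), cells labelled as Wee1 siRNA knockdown (small interfering RNA against Wee1), and a negative control (NC). All 3 groups grew in serum-containing DMEM, and the labels name inhibited proliferation as the purpose of both treatments. The labels give no dose of MK1775, no siRNA sequence and no further account of NC, which is the only control of both treatments. They number the siRNA libraries 1# to 3#, which may mean replicates or different siRNAs.

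Cells of an epithelium rest on a basement membrane, a sheet in which networks of type IV collagen and of laminin are joined by bridging proteins. A laminin is a trimer of an alpha, a beta and a gamma chain, whereas the main type IV collagen trimer is built from Col4a1 and Col4a2 chains. Fibronectin, encoded by Fn1, is assembled by cells into fibrils outside the basement membrane. Integrins are receptors for these proteins, each a pair of an alpha and a beta chain that spans the membrane and ties the matrix to the actin or keratin skeleton. In carcinoma cells of the mammary gland, laminins, fibronectin and the integrins that bind them are known for their part in adhesion, migration and survival.

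Levels were given as FPKM, which divide the fragments of a transcript by its length and by the mapped fragments of the library. FPKM totalled 321551 to 332950 per library, and 10017 to 10783 named genes stood at 1 FPKM or more. Read totals could not be recovered from the values, so the depth behind each value is unknown. Pairs of libraries of the same group correlated at 0.968 to 0.982 across genes, the lowest being siRNA-labelled replicates 1 and 3. Whether replicates were separate cultures is not stated, so the spread behind every p-value may be technical. Wee1 checked the labels: it stood at 15, 14.7 and 16.8 FPKM with MK1775, 13.1, 15.1 and 15.3 FPKM in the libraries labelled Wee1 siRNA and 11.5, 10.5 and 11 FPKM in NC. Wee1 was thus higher, not lower, in the siRNA-labelled libraries (log2 difference 0.37, adjusted p = 0.00633), and every direction given for that group rests on its label. Among epithelial markers, Krt8 and Krt18 were abundant in every library, whereas Epcam averaged 0.435, 0.421 and 0.0573 FPKM with MK1775, with the siRNA label and in NC.

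For each gene the FPKM of its named transcripts were summed, and the test took the genes whose mean over all 9 libraries reached 1 FPKM. Differences are in log2(FPKM + 1), which understates the change of low genes, and a gene is called when its limma p, adjusted over all genes tested, is under 0.05. Of the 86 genes, 28 passed the filter: 7 collagens, 5 laminin chains, 7 integrin alpha chains, 6 integrin beta chains, Fn1, Itgb1bp1 and Itgb3bp. In MK1775 against NC, 12 of the 28 (42.9%) were called, 9 higher and 3 lower, where 41% of all 10453 genes tested were called, 17.9% higher and 23.1% lower. For the siRNA label against NC, 13 of the 28 (46.4%) were called, 9 higher and 4 lower, beside 42.8% of all genes tested, 19.6% higher and 23.2% lower. The shares called are close to those of all genes. Among the genes tested, no collagen was called higher and no laminin chain lower in either comparison, whereas the integrin alpha chains had calls both ways with the siRNA label, 2 higher and 1 lower. The median log2 difference over the 28 was 0.26 with MK1775 and 0.17 with the siRNA label, beside -0.040 and -0.012 over all genes tested. Without Itgb1bp1 and Itgb3bp, the median over the other 26 was 0.25 with MK1775 and 0.053 with the siRNA label. Of these 26, 7 were called higher and 3 lower with MK1775, and 8 higher and 4 lower with the siRNA label. Both comparisons use the same 3 NC libraries. Itgax entered the test through its level in the treated libraries alone; over the 27 genes that averaged 1 FPKM or more in NC, 11 were called with MK1775 and 12 with the siRNA label, beside 40% and 41.7% of all such genes. Fitted as single transcripts, 9 of 41 tested transcripts of the listed genes were called with MK1775 and 11 with the siRNA label, beside 20.5% and 22.6% of all transcripts tested; none was called between the treatments, where 0.0134% of all were.

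**Figure D1:**
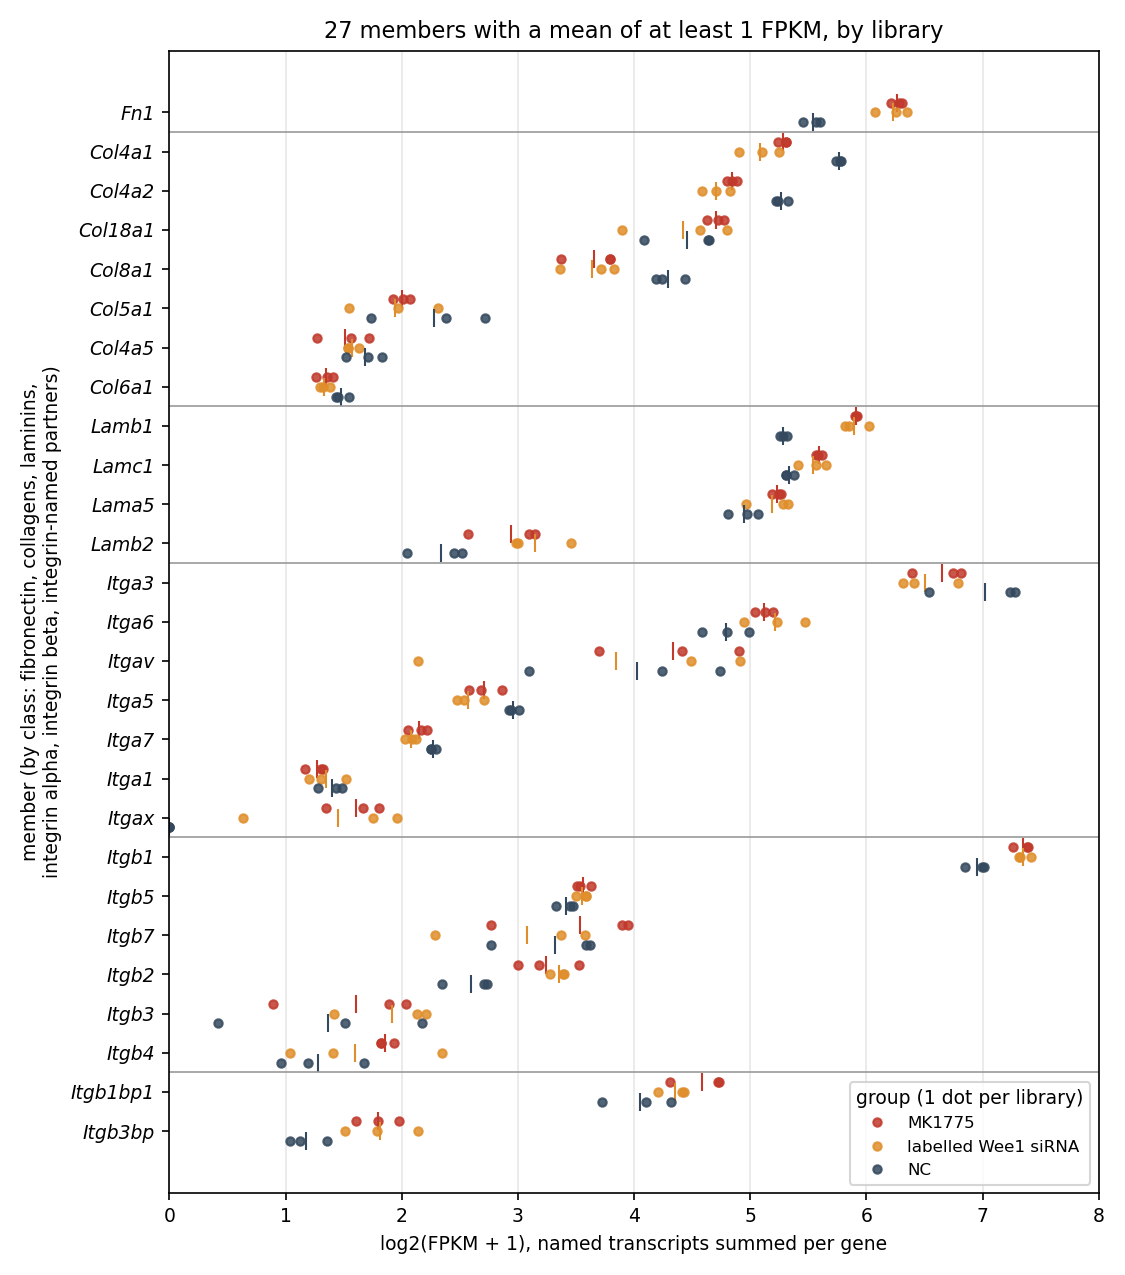
Levels of 27 of the 28 genes that averaged 1 FPKM or more, as log2(FPKM + 1) on the horizontal axis, with 1 dot per library, a vertical tick at each group's mean, and genes grouped by class from top to bottom. Fn1, Lamb1 and Itgb1 lie higher in all 6 treated libraries than in the 3 NC libraries, Col4a1, Col4a2 and Col8a1 lie lower, and Itgav, Itgb3 and Itgb7 spread widely within a group.

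Fibronectin rose in both treated groups. Fn1 (chr1:71624679-71692428, minus strand, GRCm39) stood at 73.2, 76.8 and 78.0 FPKM with MK1775, 80.4, 75.3 and 66.5 FPKM in the libraries labelled Wee1 siRNA and 46.4, 47.4 and 42.7 FPKM in NC. All 6 treated libraries lay above all 3 NC libraries. The group means were 76.0 ± 2.49 FPKM with MK1775, 74.1 ± 6.99 FPKM with the siRNA label and 45.5 ± 2.45 FPKM in NC (SD, n = 3), so that the mean was 1.67 times that of NC with MK1775 and 1.63 times with the siRNA label. The log2 difference was 0.73 with MK1775 (SE 0.073, 95% interval 0.56 to 0.90, adjusted p = 0.000151) and 0.69 with the siRNA label (SE 0.073, 95% interval 0.52 to 0.86, adjusted p = 0.0002). With the most abundant Fn1 transcript in place of the sum, neither call held (adjusted p = 0.422 with MK1775 and 0.304 with the siRNA label).

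Fibronectin made by tissue cells differs from that of plasma by 2 exons that splicing can include, EDB and EDA. By the exon structures of the reference transcripts, 7 full-length Fn1 transcripts held 98 to 98.9% of the named Fn1 FPKM, 4 of them with EDA (270 bases) and 1 with EDB (273 bases). The EDA share of full-length FPKM was 43.0, 61.3 and 40.3% with MK1775, 43.8, 53.5 and 59.6% with the siRNA label and 43.4, 48.8 and 56.2% in NC. These shares overlapped between all groups. The EDB share averaged 5.78 ± 1.29% with MK1775, 4.16 ± 1.11% with the siRNA label and 5.65 ± 2.19% in NC (SD, n = 3). FPKM in EDA transcripts averaged 36.2 ± 8.99 with MK1775, 37.8 ± 2.61 with the siRNA label and 22.1 ± 2.01 in NC. These transcripts share nearly all exons, and the division of reads among them was not tested.

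The type IV collagen chains Col4a1 and Col4a2 fell, and so did Col8a1. Of the 7 collagens tested, Col4a1, Col4a2 and Col8a1 were called lower in both comparisons and the other 4 in neither. Col4a1 stood at 36.8, 38.7 and 38.6 FPKM with MK1775, 37.0, 33.2 and 28.9 FPKM with the siRNA label and 52.3, 53.7 and 53.9 FPKM in NC. Its partner chain Col4a2 stood at 26.8, 28.6 and 27.8 FPKM with MK1775, 27.4, 25.1 and 23.0 FPKM with the siRNA label and 36.2, 39.0 and 36.9 FPKM in NC. For both chains every treated library lay below every NC library. The log2 difference of Col4a1 was -0.48 with MK1775 (SE 0.08, adjusted p = 0.00205) and -0.68 with the siRNA label (SE 0.08, adjusted p = 0.000323). For Col4a2 it was -0.42 with MK1775 (SE 0.067, adjusted p = 0.0016) and -0.56 with the siRNA label (SE 0.067, adjusted p = 0.000369). These 4 calls held under all 22 alternative settings. The ratio of Col4a1 to Col4a2 FPKM was 1.37 ± 0.0199 with MK1775, 1.31 ± 0.0490 with the siRNA label and 1.43 ± 0.0459 in NC (SD, n = 3).

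Col4a1 and Col4a2 are neighbours that are read in opposite directions from one region of chromosome 8. In the deposited annotation (GRCm39) Col4a1 spans chr8:11248423-11362826 on the minus strand and Col4a2 spans chr8:11362805-11499287 on the plus strand. Their 5′ ends are 21 bases apart and the spans overlap by 22 bases. The transcripts are 6615 and 6450 bases long. Strand-aware counting is not stated, and the part of the overlap in the values was not tested. The promoter windows of the pair are shown because both genes moved together; each runs from 250 bases before to 50 bases after the start (RefSeq, GRCm38.p6), at chr8:11312777-11313076 on the minus strand and chr8:11312555-11312854 on the plus strand. Capitals mark the 78 bases that the windows share, written on opposite strands.
Col4a1: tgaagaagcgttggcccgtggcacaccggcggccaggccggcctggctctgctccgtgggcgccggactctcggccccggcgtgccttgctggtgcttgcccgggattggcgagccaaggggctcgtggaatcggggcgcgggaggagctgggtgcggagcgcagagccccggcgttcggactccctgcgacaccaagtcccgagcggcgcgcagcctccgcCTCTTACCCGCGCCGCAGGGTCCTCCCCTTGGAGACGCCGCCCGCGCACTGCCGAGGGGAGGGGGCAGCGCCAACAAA
Col4a2: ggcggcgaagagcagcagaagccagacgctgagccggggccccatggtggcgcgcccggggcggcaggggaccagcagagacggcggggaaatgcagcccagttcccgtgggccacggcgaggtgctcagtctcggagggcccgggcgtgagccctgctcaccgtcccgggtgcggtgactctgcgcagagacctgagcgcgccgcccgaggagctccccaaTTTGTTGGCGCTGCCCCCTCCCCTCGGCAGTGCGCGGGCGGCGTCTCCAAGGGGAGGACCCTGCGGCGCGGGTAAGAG

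Col8a1, a short-chain collagen of subendothelial and other matrices, stood at 12.9, 12.9 and 9.32 FPKM with MK1775, 9.31, 12.1 and 13.2 FPKM with the siRNA label and 20.7, 17.2 and 17.9 FPKM in NC. No treated library reached the lowest NC library. The log2 difference was -0.64 with MK1775 (SE 0.16, adjusted p = 0.0123) and -0.65 with the siRNA label (SE 0.16, adjusted p = 0.0105). Col18a1, a basement membrane collagen whose end fragment is endostatin, averaged 25.2 ± 1.33 FPKM with MK1775, 21.1 ± 6.63 with the siRNA label and 21.3 ± 4.61 in NC and was called in neither comparison (SD, n = 3). It overlaps Slc19a1, and reads of the shared part cannot be told apart. Col5a1, a chain of fibrillar type V collagen, averaged 3.01 ± 0.193 FPKM with MK1775, 2.93 ± 1.03 with the siRNA label and 4.04 ± 1.64 in NC, without a call. Col4a5, another type IV chain, and Col6a1, a chain of beaded-filament collagen, averaged 1.88 and 1.54 FPKM with MK1775, 1.97 and 1.52 with the siRNA label, and 2.23 and 1.78 in NC. Neither was called. The fibrillar collagens of connective tissue were near 0, with Col1a1 at 0.130 FPKM with MK1775, 0.140 with the siRNA label and 0.0478 in NC, and Col3a1 at or under 0.00472 FPKM in each group.

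Of 12 markers of fibroblasts and other stroma, 2 averaged at least 1 FPKM, and 1 of these, Twist1, was called lower in both comparisons. The summed level of the 12 was 11 to 12.2 FPKM with MK1775, 11.7 to 12.8 with the siRNA label and 21.6 to 22.9 in NC. Most of it was Twist1 itself, a transcription factor that carcinoma cells also express, at 8.85 ± 0.734 FPKM with MK1775, 9.11 ± 0.446 with the siRNA label and 19.8 ± 0.599 in NC (SD, n = 3). The other was Pdgfra, which was not called and averaged 1.22 FPKM with MK1775, 1.60 with the siRNA label and 1.15 in NC. Lum and Fap were listed at 0 in every library, and Dcn and Thy1 averaged at most 0.0195 FPKM in any group. Their part in the collagen result was not tested. In bulk RNA, fewer cells of a type and less RNA per cell cannot be told apart.

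The laminin chains Lamb1, Lamc1 and Lamb2 rose. These 3 were called higher in both comparisons and Lama5 in neither on the named transcripts. Lamb1, the beta chain of the widespread laminins, stood at 59.6, 58.6 and 59.1 FPKM with MK1775, 63.9, 56.7 and 55.2 FPKM with the siRNA label and 37.2, 37.9 and 38.9 FPKM in NC. The lowest treated library was above the highest NC library. The log2 difference was 0.62 with MK1775 (SE 0.057, adjusted p = 9.24e-05) and 0.61 with the siRNA label (SE 0.057, adjusted p = 0.000101), and both calls held under all 22 alternative settings. Its gamma partner Lamc1 averaged 47.2 ± 0.785 FPKM with MK1775, 45.7 ± 3.83 with the siRNA label and 39.3 ± 1.19 in NC, a smaller rise of 0.26 with MK1775 (adjusted p = 0.011) and 0.21 with the siRNA label (adjusted p = 0.0251). The siRNA-label call of Lamc1 was lost without siRNA-labelled replicate 1 or 2 or NC replicate 2 or 3 (adjusted p = 0.0681 to 0.0765). That call was also lost with median-of-ratios scaling (adjusted p = 0.0989) and in the fit of 2 groups (adjusted p = 0.063). The ratio of Lamb1 to Lamc1 FPKM was 1.25 ± 0.0303 with MK1775, 1.28 ± 0.0548 with the siRNA label and 0.968 ± 0.0477 in NC (SD, n = 3), with no overlap between treated and NC libraries.

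Lamb1 was the laminin chain with the smallest adjusted p on the named transcripts, and its promoter window (RefSeq, GRCm38.p6, chr12:31265043-31265342, plus strand) is shown with matches to a GC box (GGGCGG) and a CCAAT box (CCAAT), searched on both strands, in capitals.
Lamb1: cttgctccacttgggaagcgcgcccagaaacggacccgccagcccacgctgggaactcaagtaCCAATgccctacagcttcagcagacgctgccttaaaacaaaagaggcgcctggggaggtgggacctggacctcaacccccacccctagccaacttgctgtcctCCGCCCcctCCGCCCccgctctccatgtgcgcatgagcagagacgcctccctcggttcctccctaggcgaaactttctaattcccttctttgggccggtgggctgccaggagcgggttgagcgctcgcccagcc
The window held 2 GC boxes and 1 CCAAT box. Of all 32851 RefSeq windows of this length, 35.7% held a GC box and 37.4% a CCAAT box. Windows were found for 61 of the 86 genes, 67 in all, of which 35 held a GC box and 17 a CCAAT box. A match is a description of the letters and not a site of binding.

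Lamb2, the beta chain that replaces Lamb1 in some basement membranes, stood at 7.57, 7.84 and 4.95 FPKM with MK1775, 7.03, 6.93 and 9.99 FPKM with the siRNA label and 3.12, 4.74 and 4.47 FPKM in NC. Every treated library lay above every NC library, the closest pair being MK1775 replicate 3 and NC replicate 2. The log2 difference was 0.60 with MK1775 (SE 0.21, adjusted p = 0.048) and 0.81 with the siRNA label (SE 0.21, adjusted p = 0.0136). The MK1775 call of Lamb2 was lost without any 1 of 7 libraries, MK1775 replicates 1 and 2, siRNA-labelled replicates 1 and 2 and all 3 of NC (adjusted p = 0.0583 to 0.143). That call was also lost with no filter, a replicate block, the most abundant transcript and the fit of 2 groups (adjusted p = 0.0584 to 0.0983). Lama5, the alpha chain that pairs with these beta and gamma chains in epithelia, averaged 36.6 ± 1.09 FPKM with MK1775, 35.7 ± 4.90 with the siRNA label and 29.9 ± 2.77 in NC. Its log2 difference of 0.29 with MK1775 missed the threshold (adjusted p = 0.0605), as did that of 0.24 with the siRNA label (adjusted p = 0.0969); without siRNA-labelled replicate 3 both passed it (adjusted p = 0.0154 with MK1775 and 0.011 with the siRNA label).

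Summed over all listed chains, laminin FPKM was 154 ± 2.65 with MK1775, 153 ± 13.3 with the siRNA label and 113 ± 2.45 in NC (SD, n = 3). The collagen sum was 113 ± 4.49 with MK1775, 102 ± 7.15 with the siRNA label and 140.3 ± 2.13 in NC, and the type IV chains within it made up 67.8 ± 2.02 with MK1775, 60.3 ± 6.18 with the siRNA label and 93.1 ± 2.24 in NC. The 38 other collagens together were at 45.0 ± 3.81 with MK1775, 42.0 ± 3.64 with the siRNA label and 47.3 ± 0.980 in NC. By summed FPKM, the NC libraries thus held more collagen than laminin, and the treated libraries held more laminin than collagen.

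**Figure D2:**
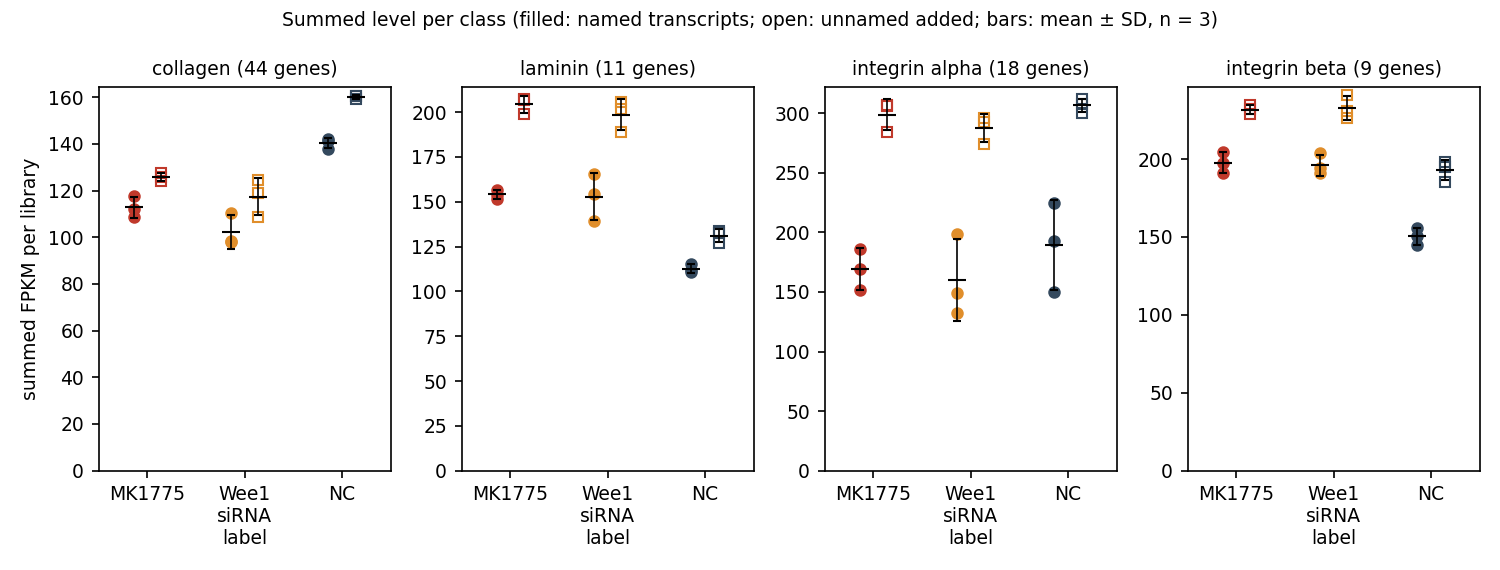
Summed FPKM per library of all listed collagens, laminin chains, integrin alpha chains and integrin beta chains; dots and squares are single libraries, bars are mean ± SD of 3. Filled dots use named transcripts and open squares add unnamed assembled transcripts at the same locus. Laminin and integrin beta sums were higher and collagen sums lower in all treated libraries than in NC on both scales.

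Among integrin beta chains, on named transcripts, Itgb1 and Itgb2 were called higher in both comparisons and the other 4 tested were called in neither. With unnamed transcripts added, Itgb2 and Itgb3 were called lower in both comparisons, and Itgb1 and Itgb7 higher. Itgb1, the beta chain shared by most matrix-binding integrins, had the highest mean FPKM of the listed genes in both treated groups on named transcripts; with unnamed transcripts added, Itga3 was higher. It stood at 166, 167 and 153 FPKM with MK1775, 159, 158 and 169.9 FPKM with the siRNA label and 128, 114 and 126 FPKM in NC, without overlap. The log2 difference was 0.39 with MK1775 (SE 0.059, adjusted p = 0.0011) and 0.40 with the siRNA label (SE 0.059, adjusted p = 0.000991), and with the most abundant transcript alone neither call held (adjusted p = 0.119 with MK1775 and 0.121 with the siRNA label). Itgb5, a partner of the alpha V chain, averaged 10.8 ± 0.508 FPKM with MK1775, 10.8 ± 0.418 with the siRNA label and 9.69 ± 0.549 in NC. Its treated libraries all lay above NC, but the log2 difference of 0.14 in each comparison missed the threshold (adjusted p = 0.105 with MK1775 and 0.109 with the siRNA label). Itgb3, another alpha V partner, Itgb4, the hemidesmosome partner of Itga6, and Itgb7, the partner of Itga4 and Itgae, were not called on named transcripts. Itgb4 passed with MK1775 in the fit without siRNA-labelled replicate 1 (adjusted p = 0.0485), and it overlaps Galk1. Itgb3 for instance stood at 3.10, 0.851 and 2.72 FPKM with MK1775, 3.39, 3.63 and 1.67 FPKM with the siRNA label and 0.333, 3.52 and 1.85 FPKM in NC.

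The integrin alpha chains had no common direction. Itga3, a laminin receptor chain and the alpha chain with the highest FPKM, stood at 112, 82.9 and 106 FPKM with MK1775, 84.1, 109.8 and 78.7 FPKM with the siRNA label and 155, 150.2 and 92.0 FPKM in NC. NC replicate 3 was far below the other NC libraries, and neither comparison was called (adjusted p = 0.224 with MK1775 and 0.0971 with the siRNA label). Without that library both were called lower (log2 difference -0.61, adjusted p = 0.0307, with MK1775 and -0.76, adjusted p = 0.0131, with the siRNA label). Itga6, the other main laminin receptor chain, averaged 33.8 ± 1.87 FPKM with MK1775, 36.6 ± 6.77 with the siRNA label and 26.8 ± 3.91 in NC. It was called with the siRNA label (log2 difference 0.43, adjusted p = 0.0427) and not with MK1775 (0.33, adjusted p = 0.103). The siRNA-label call was lost without any 1 of 7 libraries, all 3 of MK1775, siRNA-labelled replicates 2 and 3 and NC replicates 2 and 3 (adjusted p = 0.0585 to 0.131). That call was also lost with no filter, a replicate block, the most abundant transcript and the fit of 2 groups (adjusted p = 0.0777 to 0.0851). Itga5, the alpha chain of the main fibronectin receptor, averaged 5.56 ± 0.662 FPKM with MK1775, 4.96 ± 0.512 with the siRNA label and 6.78 ± 0.254 in NC, with every treated library below NC. It fell with the siRNA label (log2 difference -0.39, SE 0.094, adjusted p = 0.0113), whereas the difference of -0.25 with MK1775 missed the threshold (adjusted p = 0.0657), which it passed without MK1775 replicate 3 (adjusted p = 0.0314). Fn1 and this receptor chain lay on opposite sides of NC in the treated libraries.

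Itga7, a laminin-binding chain best known from muscle, averaged 3.43 ± 0.262 FPKM with MK1775, 3.23 ± 0.140 with the siRNA label and 3.82 ± 0.0913 in NC. Its treated libraries lay below NC without a call (adjusted p = 0.205 with MK1775 and 0.061 with the siRNA label). Itga1, a collagen-binding chain, averaged 1.41 ± 0.137 FPKM with MK1775, 1.55 ± 0.291 with the siRNA label and 1.64 ± 0.193 in NC, with overlapping groups. It overlaps Pelo on the same strand, and reads of the shared part cannot be told apart. Itgav, the alpha V chain of several receptors for fibronectin and vitronectin, stood at 29.0, 20.2 and 12.0 FPKM with MK1775, 3.41, 29.1 and 21.5 FPKM with the siRNA label and 25.7, 7.53 and 17.9 FPKM in NC, so that every group spanned most of the others.

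Among the 7 integrin alpha chains tested, Itgax alone was listed at 0 in every NC library. Under the filter, Itga4, Itga9, Itgad, Itgal and Itgam were listed at 0 there too. Itgax, Itgal, Itgam and Itgad are partners of Itgb2 and are known mainly from leukocytes. Itgax (chr7:127728719-127749829, plus strand, GRCm39) stood at 1.54, 2.18 and 2.5 FPKM with MK1775, 2.37, 2.89 and 0.548 FPKM with the siRNA label and 0, 0 and 0 FPKM in NC. Every treated library exceeded NC, and limma called it in both comparisons (adjusted p = 0.00436 with MK1775 and 0.00693 with the siRNA label). Since Itgax passed the filter through the treated libraries alone, these calls add nothing to the values themselves. With the most abundant transcript alone the siRNA-label call was lost (adjusted p = 0.0767). A fold cannot be given against a group listed at 0. The low value of siRNA-labelled replicate 3 belonged to the named transcripts, and with 2 unnamed transcripts of the same locus added the values were 3.03, 2.38 and 2.76 FPKM with MK1775, 2.84, 3.06 and 3.52 FPKM with the siRNA label and 0, 0 and 0 FPKM in NC. Its promoter window (RefSeq, GRCm38.p6, chr7:128129300-128129599, plus strand) is shown as that of the only gene among the 28 listed at 0 in every NC library. Capitals mark a match to CCAAT, here read on the other strand, and a match to the AP-1 motif TGANTCA.
Itgax: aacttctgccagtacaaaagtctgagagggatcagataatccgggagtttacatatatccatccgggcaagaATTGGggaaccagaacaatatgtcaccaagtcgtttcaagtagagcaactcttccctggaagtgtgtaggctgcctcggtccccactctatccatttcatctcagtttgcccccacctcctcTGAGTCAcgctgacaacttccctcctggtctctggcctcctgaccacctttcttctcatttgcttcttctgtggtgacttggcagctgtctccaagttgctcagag
The AP-1 motif was found in 7.81% of all RefSeq windows and in 4 of the 67 windows of the listed genes.

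Itgb2 stood at 8.10, 10.5 and 7.01 FPKM with MK1775, 8.67, 9.44 and 9.54 FPKM with the siRNA label and 5.65, 4.10 and 5.52 FPKM in NC in its named transcripts. The treated libraries all exceeded NC, with log2 differences of 0.64 with MK1775 (SE 0.15, adjusted p = 0.0101) and 0.76 with the siRNA label (SE 0.15, adjusted p = 0.00449). With unnamed transcripts added, the direction turned in both comparisons: Itgb2 then stood at 16.8, 17.0 and 16.5 FPKM with MK1775, 15.8, 16 and 15 FPKM with the siRNA label and 23.6, 24.3 and 26.5 FPKM in NC, a log2 difference of -0.54 with MK1775 (adjusted p = 3.95e-05) and -0.64 with the siRNA label (adjusted p = 1.45e-05). The named form was a reference transcript of 16 exons, at 7.44, 9.66 and 6.90 FPKM with MK1775, 7.60, 9.23 and 9.16 with the siRNA label and 5.01, 3.42 and 3.39 in NC. The unnamed forms had 15 and 14 exons with the same 3′ end, and the 15-exon form stood at 7.94, 5.95 and 8.5 FPKM with MK1775, 6.71, 6.11 and 4.91 with the siRNA label and 17.2, 10.4 and 12.4 in NC. The reference form thus held a larger share of a lower total in the treated libraries.

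Leukocyte markers were mostly low or at 0. Of 12 listed markers, 6 were listed at 0 in every library, among them Spi1, Adgre1, Lyz2 and Cd3e, and the summed level was 6.42 to 8.69 FPKM with MK1775, 7.75 to 9.70 with the siRNA label and 9.95 to 12.2 in NC. The sum was thus highest in NC. Ptprc, the common leukocyte antigen, averaged 0.170 FPKM with MK1775, 0.326 with the siRNA label and 0.0126 in NC. Most of the sum was Cd14 and Cd68, at 4.20 and 2.23 FPKM with MK1775, 4.19 and 2.63 with the siRNA label, and 5.65 and 3.69 in NC. The part of leukocyte markers in the Itgax values was not tested.

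The remaining named genes are not integrin chains. Itgb1bp1 encodes a protein that binds the tail of the beta 1 chain inside the cell, and stood at 18.9, 25.3 and 25.5 FPKM with MK1775, 20.6, 20.3 and 17.5 FPKM with the siRNA label and 18.9, 16.2 and 12.3 FPKM in NC. The MK1775 and NC groups overlapped at their edge, and the call with MK1775 (log2 difference 0.54, adjusted p = 0.0342) was lost without MK1775 replicate 2 or 3 or NC replicate 2 or 3 (adjusted p = 0.0671 to 0.104). That call was also lost with no filter, a replicate block and the fit of 2 groups (adjusted p = 0.0589 to 0.0718). Itgb3bp encodes a protein of the inner kinetochore, and stood at 2.94, 2.47 and 2.05 FPKM with MK1775, 1.85, 3.41 and 2.45 FPKM with the siRNA label and 1.56, 1.19 and 1.05 FPKM in NC. All treated libraries exceeded NC, with log2 differences of 0.62 with MK1775 (adjusted p = 0.0225) and 0.64 with the siRNA label (adjusted p = 0.0191). The MK1775 call was lost without MK1775 replicate 1 or 2 or NC replicate 2 or 3 (adjusted p = 0.058 to 0.0764), and the siRNA-label call without siRNA-labelled replicate 2 or NC replicate 2 or 3 (adjusted p = 0.0516 to 0.0657). With no filter the MK1775 call of Itgb3bp was also lost (adjusted p = 0.0513). Itgb1bp1 overlaps Asap2 and Cpsf3, and Itgb3bp overlaps Pgm1 and Efcab7, all on the opposite strand, so that reads of shared parts cannot be told apart.

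The deposited table also holds assembled transcripts without a gene name, and for many of these genes they change the values. Where a locus holds 1 gene name, its unnamed transcripts were added to that gene and the whole fit was repeated over 10939 genes. On that scale 22 of 29 listed genes were called with MK1775, 13 higher and 9 lower, beside 54.1% of all genes tested (25.3% higher, 28.8% lower). With the siRNA label 21 of 29 were called, 11 higher and 10 lower, beside 56.2% (28% higher, 28.2% lower). Without Itgb1bp1 and Itgb3bp, the median log2 difference over 27 genes was 0.050 with MK1775 and -0.035 with the siRNA label. Over all genes tested on that scale it was -0.022 and 0.010. Lama5, Lamb1, Lamb2 and Lamc1 were called higher with MK1775, and Lamb1, Lamb2 and Lamc1 with the siRNA label. Lama5 had no unnamed transcript to add, so its FPKM were the same on both scales and only the fit over all genes differed. Of 8 collagens, 5 were called lower in each comparison and none higher. The spread within groups shrank as well: over the 28 genes the median coefficient of variation was 14.7% on named transcripts and 5.46% with unnamed ones, and it was lower for each of the 14 genes with at least 20% of their FPKM in unnamed transcripts. Itgav for example had a mean coefficient of variation of 56.2% on named transcripts and 8.33% with unnamed ones. For these genes the split between named and unnamed FPKM differed from library to library, and the sum differed less.

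**Figure D3:**
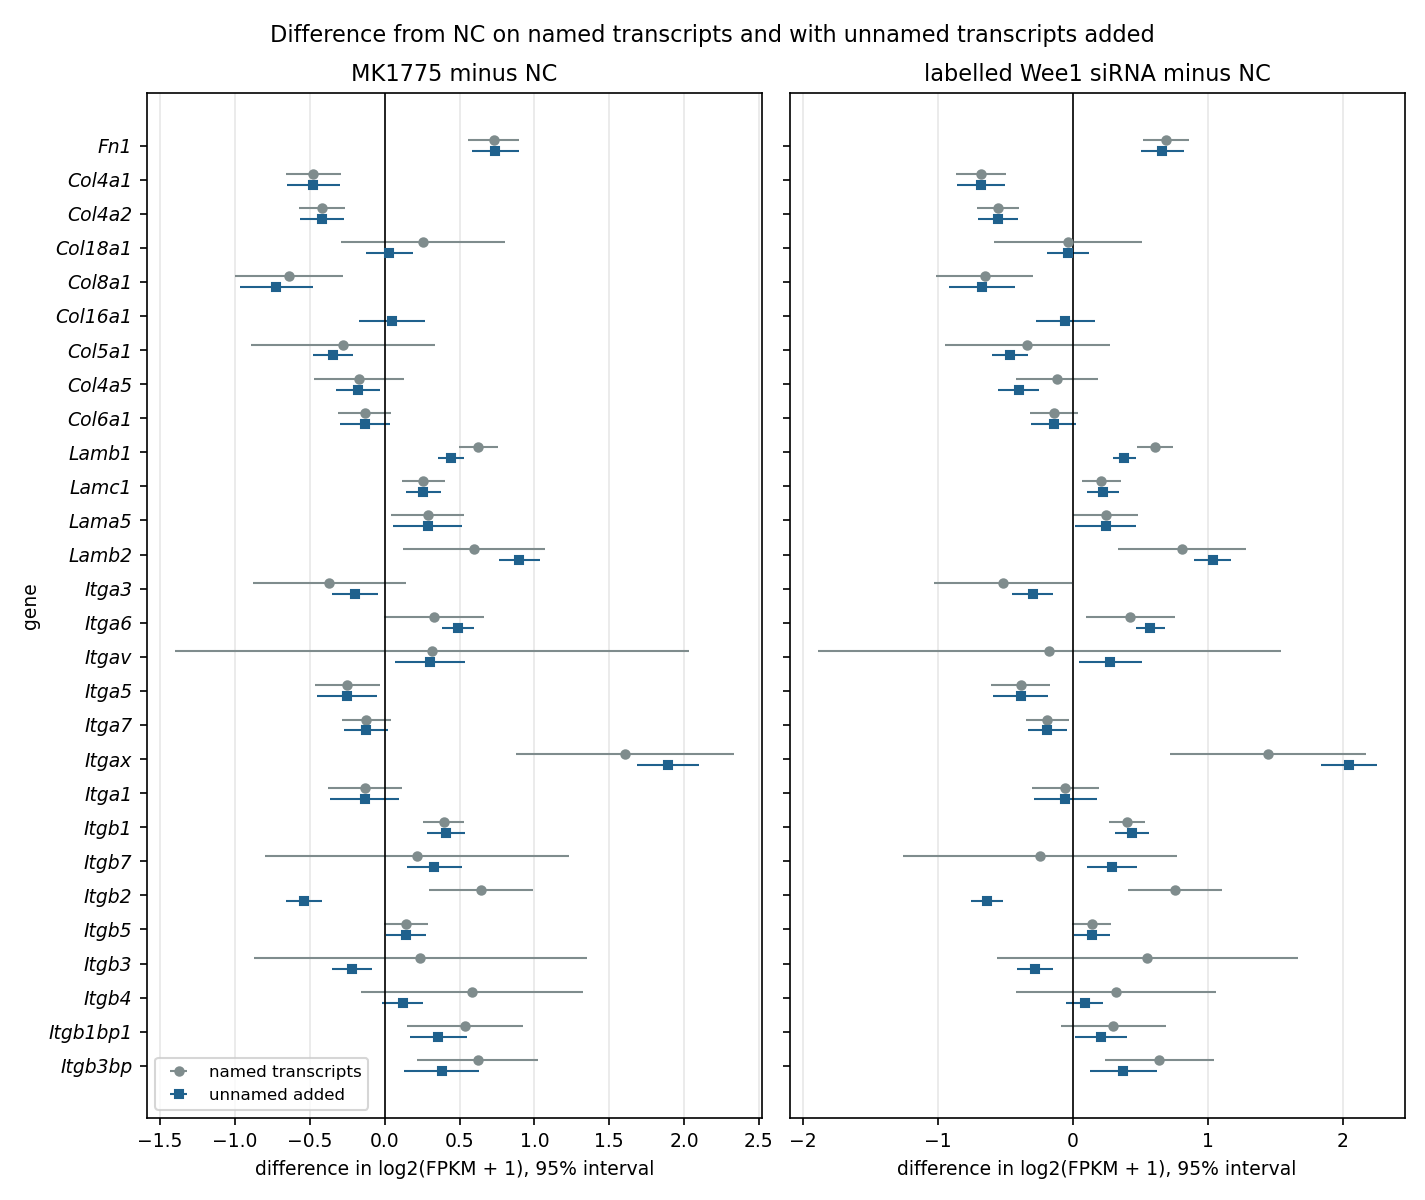
Difference in log2(FPKM + 1) against NC for 28 of the 29 tested genes, MK1775 on the left and the libraries labelled Wee1 siRNA on the right, with 95% intervals from limma. Grey circles use named transcripts and blue squares add unnamed transcripts. Intervals narrow for most genes when unnamed transcripts are added, and Itgb2 and Itgb3 change side in both panels.

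The Itgam locus holds 3 gene names, so that its unnamed transcripts entered neither sum. Its named transcripts averaged 0.277 FPKM with MK1775 and 0.451 FPKM with the siRNA label and were listed at 0 in NC. Another 3 unnamed transcripts of 8 to 13 exons begin 49474 to 52322 bases inside the gene (chr7:127711286-127727332, plus strand, GRCm39), just before Itgax on the same strand. They summed to 4.23, 3.22 and 3.06 FPKM with MK1775, 3.86, 4.54 and 4.04 FPKM with the siRNA label and 0, 0 and 0 FPKM in NC.

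Both main laminin receptor chains were called in both comparisons on the wider scale. Itga6 stood at 46.4, 47.4 and 46.9 FPKM with MK1775, 48.9, 50.1 and 50.5 FPKM with the siRNA label and 35.4, 31.3 and 32.8 FPKM in NC, without overlap, and was called in both comparisons (log2 difference 0.49, adjusted p = 3.86e-05, with MK1775; 0.57, adjusted p = 1.47e-05, with the siRNA label). Itga3 stood at 191, 212 and 213 FPKM with MK1775, 200.2, 198 and 176 FPKM with the siRNA label and 222, 247 and 236 FPKM in NC and was called lower (-0.20, adjusted p = 0.0366, with MK1775; -0.30, adjusted p = 0.00503, with the siRNA label). The laminin receptor chains Itga6 and Itga3 thus lay on opposite sides of NC. Itgb4, the partner of Itga6, averaged 6.23 ± 0.133 FPKM with MK1775, 6.08 ± 0.421 with the siRNA label and 5.65 ± 0.204 in NC and was not called (adjusted p = 0.124 with MK1775 and 0.241 with the siRNA label).

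Further chains, at lower FPKM than Itga3 and Itga6, were also called on this scale. Lamb2 averaged 9.21 ± 0.465 FPKM with MK1775, 10.2 ± 0.413 with the siRNA label and 4.47 ± 0.268 in NC, and its log2 difference was 0.90 with MK1775 (adjusted p = 4.49e-06) and 1.04 with the siRNA label (adjusted p = 1.88e-06). Col5a1 averaged 5.65 ± 0.143 FPKM with MK1775, 5.14 ± 0.389 with the siRNA label and 7.46 ± 0.131 in NC and was called lower in both (adjusted p = 0.00106 with MK1775 and 0.000182 with the siRNA label). Col4a5 was also called lower, at 2.84 ± 0.0926 FPKM with MK1775, 2.29 ± 0.177 with the siRNA label and 3.34 ± 0.149 in NC (adjusted p = 0.0461 with MK1775 and 0.000795 with the siRNA label). Itgav, with the log2 difference 0.31 with MK1775 and 0.28 with the siRNA label, and Itgb7, with 0.33 with MK1775 and 0.29 with the siRNA label, were called higher. Itgb3 was called lower, by -0.22 with MK1775 and -0.28 with the siRNA label. Col16a1, under the filter on named transcripts, averaged 6.39 FPKM with MK1775, 5.91 with the siRNA label and 6.14 in NC and was not called.

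**Figure D4:**
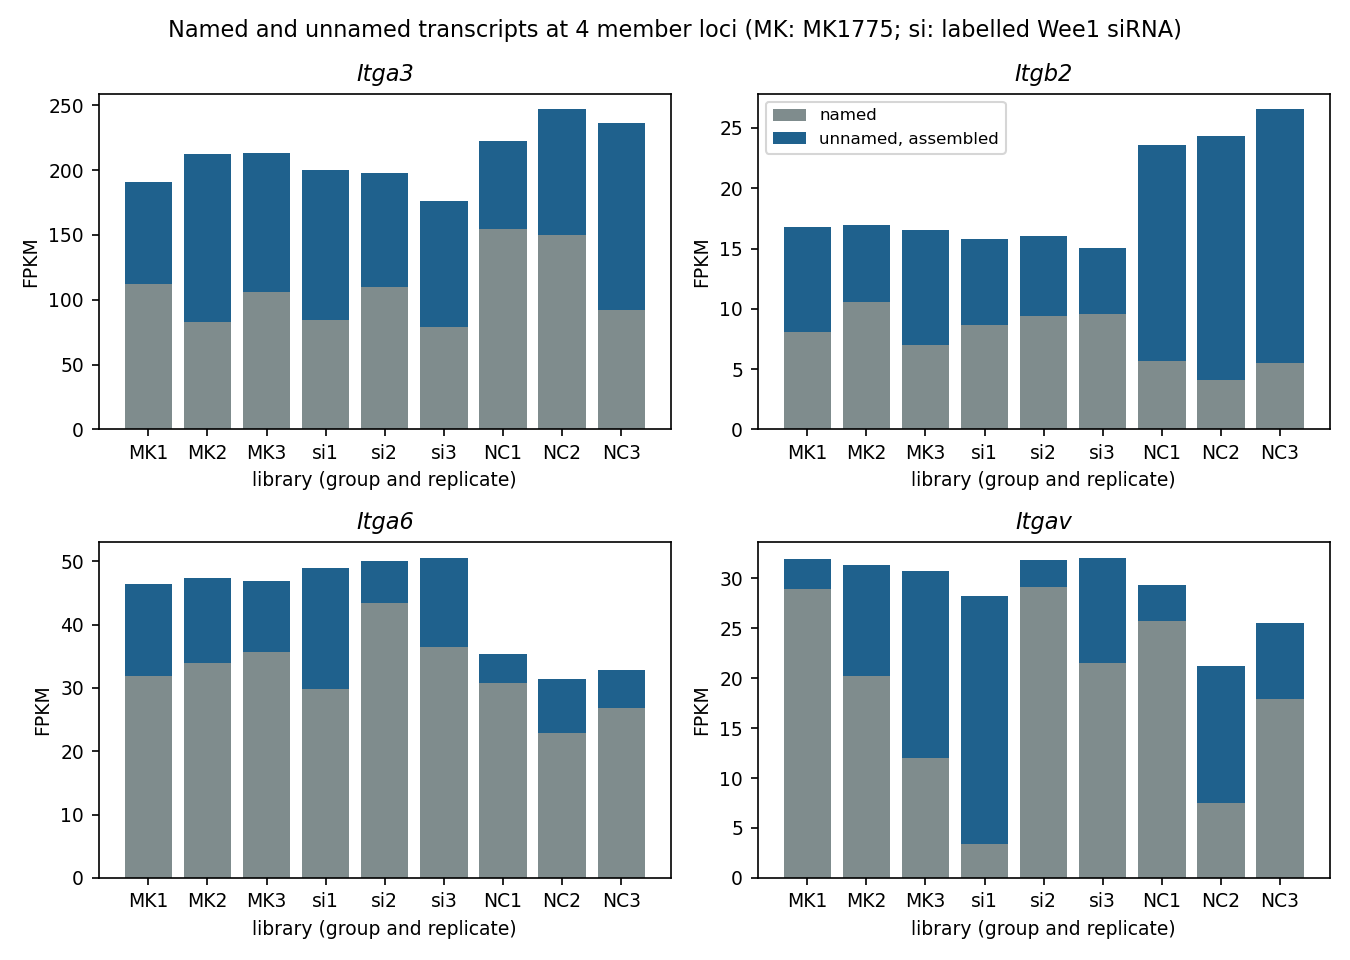
FPKM per library at the Itga3, Itgb2, Itga6 and Itgav loci, with libraries on the horizontal axis; grey is the sum of named and blue that of unnamed transcripts. At Itgb2 the unnamed part is largest in NC, and at Itga3 and Itgav the totals vary less than the named part.

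A further 58 of the 86 genes stayed under 1 FPKM on named transcripts: 37 collagens, 6 laminin chains, 11 integrin alpha chains, 3 integrin beta chains and Itgb1bp2. Of these, 3 were listed at 0 in every library, 38 averaged under 0.1 FPKM, and Col16a1 was highest at 0.735 FPKM. On named transcripts, Col7a1, Lamb3 and Itga2b reached 1 FPKM in the siRNA-labelled group. Col7a1, the anchoring fibril collagen, averaged 0.475 FPKM with MK1775, 1.55 with the siRNA label and 0.118 in NC. Lamb3, a beta chain of epithelial laminin, averaged 0.867 FPKM with MK1775, 1.02 with the siRNA label and 0.103 in NC. Itga2b, known as the platelet fibrinogen receptor chain, averaged 0.762 FPKM with MK1775, 1.06 with the siRNA label and 0.0420 in NC. Of 10 endothelial and platelet markers, 2 (Pf4 and Gp9) were listed at 0 in every library and none averaged 1 FPKM. Their summed level was 0.898 to 1.20 FPKM with MK1775, 0.771 to 1.32 with the siRNA label and 0.565 to 0.713 in NC, higher in all treated libraries, and their part in the Itga2b values was not tested.

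Of the 55 low genes above 0 somewhere, 26 lay above NC without overlap in each comparison and none below. Among all 18239 genes under the filter and above 0 somewhere, 17.3% lay above NC without overlap with MK1775 and 18% with the siRNA label, while 2.77% and 2.18% lay below. In a fit without the filter, 14 of the 55 were called higher with MK1775 and 18 with the siRNA label, and none lower, where 7.2% and 9.91% of all low genes were called higher and 0.718% and 0.696% lower. The number of listed genes above 0 was 72 to 73 with MK1775, 66 to 73 with the siRNA label and 49 to 57 in NC. Over all transcripts of the table, fewer were above 0 in NC as well. They numbered 74437 to 76364 with MK1775, 73135 to 75579 with the siRNA label and 65343 to 66662 in NC. Those called higher in both comparisons without the filter were 6 collagens (Col17a1, Col5a3, Col20a1, Col11a2, Col12a1 and Col9a3), the laminin chains Lamb3 and Lama3, and the integrin chains Itga2b, Itgb6, Itgam and Itga2, which binds collagen. Col17a1, the hemidesmosome collagen, averaged 0.428 FPKM with MK1775, 0.499 with the siRNA label and 0.0347 in NC. Itgb6, the epithelial partner of the alpha V chain, averaged 0.392 FPKM with MK1775, 0.520 with the siRNA label and 0.00388 in NC. Lama3, the alpha chain that joins Lamb3, averaged 0.0956 FPKM with MK1775, 0.0994 with the siRNA label and 0.0303 in NC. Col17a1, Itgb6, Lama3 and Itga2 were picked after their values were seen.

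Of 13 epithelial markers 7 were tested, and 4 were called higher and 1 lower in each comparison (71.4% called). With MK1775, 41% of all genes tested were called (17.9% higher, 23.1% lower), and with the siRNA label 42.8% (19.6% higher, 23.2% lower). The summed level of the 13 was 782 to 799 FPKM with MK1775, 722 to 733 with the siRNA label and 432 to 501 in NC. Krt18 and Krt8, keratins of simple epithelia, made up most of it, at 475 and 290.4 FPKM with MK1775, 435 and 267 with the siRNA label, and 251 and 196 in NC. Grhl2, an epithelial transcription factor, averaged 1.94 FPKM with MK1775, 1.94 with the siRNA label and 0.0202 in NC. It passed the filter through its level in the treated libraries alone. Cldn3 went the other way, at 10.1 FPKM with MK1775, 9.94 with the siRNA label and 18.2 in NC. Their part in the laminin result was not tested.

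Genes that act with these proteins were read from the same fit, in which 41% of all genes were called with MK1775 (17.9% higher, 23.1% lower) and 42.8% with the siRNA label (19.6% higher, 23.2% lower). Of 8 tested partners of the basement membrane, 4 (50%) were called lower in each comparison and none higher: Sparc, a collagen-binding glycoprotein, averaged 95 ± 3.38 FPKM with MK1775, 78.5 ± 4.66 with the siRNA label and 121 ± 8.47 in NC, and Pxdn, the peroxidase that cross-links type IV collagen, averaged 8.42 ± 1.31 FPKM with MK1775, 7.15 ± 2.10 with the siRNA label and 12.7 ± 0.332 in NC (SD, n = 3). Npnt, an integrin ligand, and Tinagl1 were the other 2. Of 21 tested enzymes and chaperones of collagen, 2 were called higher and 5 lower with MK1775 (33.3% called), and 2 higher and 6 lower with the siRNA label (38.1%), shares below those of all genes. The lysyl oxidases Loxl3 and Loxl4, which cross-link collagen, went opposite ways: Loxl3 averaged 5.14 ± 0.106 FPKM with MK1775, 5.21 ± 0.506 with the siRNA label and 10.2 ± 0.421 in NC, and Loxl4 averaged 45.6 ± 0.345 FPKM with MK1775, 43.3 ± 0.733 with the siRNA label and 30.0 ± 1.28 in NC. P4ha2, a prolyl hydroxylase of collagen, was at 5.63 ± 0.384 FPKM with MK1775, 5.93 ± 0.364 with the siRNA label and 8.36 ± 0.941 in NC and was called lower in both. The medians over these lists were -0.15 with MK1775 and -0.26 with the siRNA label for basement membrane partners, and -0.11 with MK1775 and -0.082 with the siRNA label for collagen processing.

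Of 11 tested integrin ligands outside the named classes, 3 were called higher and 3 lower in each comparison (54.5% called, beside 41% of all genes with MK1775 and 42.8% with the siRNA label; median 0.043 with MK1775 and -0.046 with the siRNA label). Vcam1 averaged 10.1 ± 0.305 FPKM with MK1775, 8.70 ± 0.416 with the siRNA label and 16.3 ± 0.163 in NC, and Icam1, a ligand of Itgb2 integrins, averaged 2.40 ± 0.357 FPKM with MK1775, 2.11 ± 0.296 with the siRNA label and 0.946 ± 0.101 in NC. Of 11 tested matrix receptors that are not integrins, 3 were called lower with MK1775 (27.3%) and 1 with the siRNA label (9.09%), and none higher (median -0.052 with MK1775 and -0.057 with the siRNA label). The heparan sulfate carrier Sdc1 averaged 33.1 ± 2.22 FPKM with MK1775, 32.7 ± 1.42 with the siRNA label and 60.0 ± 2.54 in NC. Of 33 tested genes of the adhesion plaque inside the cell, 5 were called higher and 8 lower with MK1775 (39.4% called), and 5 higher and 11 lower with the siRNA label (48.5%), shares near those of all genes (median -0.13 with MK1775 and -0.052 with the siRNA label). The plaque protein Zyx averaged 25.3 ± 7.56 FPKM with MK1775, 19.2 ± 2.85 with the siRNA label and 43.0 ± 4.86 in NC. Of 5 tested genes on a list of hemidesmosome and keratin genes, 2 were called higher with MK1775 (40%) and 3 with the siRNA label (60%). Krt18 and Krt8 were called in both and Dst with the siRNA label (median 0.34 with MK1775 and 0.45 with the siRNA label). Krt18 and Krt8 are keratins of simple epithelia and are also counted among the epithelial markers. The calls with MK1775 thus say nothing of hemidesmosome proteins.

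Matrix proteases and their inhibitors had 3 genes called higher and 6 lower of 20 tested with MK1775 (45% called, beside 41% of all genes), and 3 higher and 3 lower with the siRNA label (30%, beside 42.8%; median -0.062 with MK1775 and -0.011 with the siRNA label). Mmp3, which degrades laminin and fibronectin, averaged 27.9 ± 1.21 FPKM with MK1775, 29.2 ± 1.51 with the siRNA label and 107 ± 6.84 in NC. Of 26 tested genes of the TGF-beta and YAP pathways, which act on matrix genes, 6 were called higher and 5 lower with MK1775 (42.3% called), and 6 higher and 6 lower with the siRNA label (46.2%), again near the shares of all genes (median -0.15 with MK1775 and -0.023 with the siRNA label). The TGF-beta ligand Tgfb2 averaged 4.14 ± 0.214 FPKM with MK1775, 4.48 ± 0.312 with the siRNA label and 0.926 ± 0.0967 in NC, and Ankrd1, a target of YAP, averaged 27.6 ± 0.642 FPKM with MK1775, 26.0 ± 1.88 with the siRNA label and 46.9 ± 4.29 in NC.

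In MK1775 against the libraries labelled Wee1 siRNA, none of the 28 genes was called by limma (smallest adjusted p = 0.834), where 1 of 10453 genes (0.00957%) was called, and 1 of the 28 had an unadjusted p under 0.05. That gene was Col4a1, 38.0 ± 1.08 FPKM with MK1775 and 33.0 ± 4.06 FPKM with the siRNA label (SD, n = 3; log2 difference 0.20, 95% interval 0.02 to 0.39, unadjusted p = 0.0341). The interval of this difference was -0.13 to 0.21 for Fn1, -0.12 to 0.15 for Lamb1 and -0.14 to 0.13 for Itgb1. For genes such as Itgav (-1.23 to 2.21) the interval on named transcripts was wide. Of the 28 genes, 11 were called in both comparisons against NC, all in the same direction, 1 with MK1775 alone (Itgb1bp1) and 2 with the siRNA label alone (Itga6 and Itga5), and these 3 were not called in the direct comparison.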

How the data were processed

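RNA of 9 libraries of 4T1 cells was sequenced by the submitters; per the labels' protocols, libraries were made from total RNA with an NEBNext Ultra kit. The submitters' processing notes list the tools Trim Galore, FastQC, StringTie and HISAT2 without versions, and the build GRCm39. The authors deposited FPKM per transcript for 158719 transcripts, of which 17991 assembled ones have no gene name, per the file headers. Poly(A) selection, strand and read totals are not stated in the labels. Columns were matched to libraries by the column names in the sample descriptions.

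FPKM were summed per gene name (19 names on several chromosomes were left out) and tested with limma 3.58.1 in R 4.3.3 (lmFit, contrasts.fit, eBayes with trend) on log2(FPKM + 1), all 9 libraries in 1 fit, for the 10453 genes that averaged at least 1 FPKM, two-sided, with Benjamini-Hochberg adjustment over all genes tested and a threshold of 0.05. FPKM are not counts, and low values were not whole multiples of a step (at most 37.2% within 0.1), so no reads were recovered. Tables were made with pandas 2.3.3 and figures with matplotlib 3.10.9. In a second scale, 9599 unnamed transcripts were added to the only gene name of their locus. On simulated data with known changes, the fit was tested before use. Fn1 exons came from a GENCODE vM21 annotation; promoter windows came from RefSeq (GRCm38.p6), and no coordinates were carried between builds.

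The genes and lists were chosen with earlier results of these data known. Every listed gene with at least 1 FPKM is named or counted, those with a called log2 difference of 0.5 or more with each library's value, and of each related list the 2 to 4 called genes of largest difference were eligible; marker genes and genes under the filter beyond this rule were picked with their values known. A few genes of these lists are counted but not reported here by name. Alternatives were the most abundant transcript per gene, the unnamed transcripts, pseudocounts of 0.1 and 0.01, no filter, a minimum of 5 FPKM, 3 scalings, a replicate block, fits of 2 groups, array weights, eBayes without trend, and each library left out.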

Additional observations from a re-analysis of the deposited data

Results flagged for a closer look

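At 2 loci that hold more than 1 gene name, unnamed assembled transcripts that no sum used stood above NC with MK1775, and at 1 of them with the siRNA label too. At the Itgam locus they summed to 4.23, 3.22 and 3.06 FPKM with MK1775 and 3.86, 4.54 and 4.04 FPKM with the siRNA label, a mean of 3.50 ± 0.638 with MK1775 and 4.15 ± 0.356 with the siRNA label (SD, n = 3), and were listed at 0 in all 3 NC libraries. At the Col7a1 locus they averaged 1.96 ± 0.0222 FPKM with MK1775, against 0.617 ± 0.0747 FPKM in NC (SD, n = 3). The siRNA-labelled libraries, at 1.86, 0 and 2.77 FPKM, lay on both sides of NC in this unnamed part. Named Col7a1 and unnamed transcripts together stood at 2.28, 2.68 and 2.33 FPKM with MK1775 and 2.53, 2.23 and 4.51 with the siRNA label. In NC they stood at 0.622, 0.922 and 0.663 FPKM, below every treated library. At the Col20a1 and Itga10 loci the treated libraries overlapped NC. Which gene of the locus these transcripts belong to was not tested. No group had enough libraries for a test of single outlying samples.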

How the results depend on the processing

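On named transcripts the count called higher with MK1775 was 9, and 20 with no filter; the count called lower was 3, 5 with array weights and 9 with unnamed transcripts added. With the siRNA label 9 were called higher, 26 with no filter and 5 with the most abundant transcript; 4 were called lower, and 10 with unnamed transcripts added. No filter admits 83 genes in place of 28; for the other settings the cause was not tested. Adding unnamed transcripts reversed the sign of Itgb2 (-0.54 with MK1775, -0.64 with the siRNA label), Itgb3 (-0.22 and -0.28), Itgav (0.28, siRNA label) and Itgb7 (0.29, siRNA label). Leaving out each library in turn gave 6 to 11 higher and 3 to 4 lower with MK1775, 6 to 10 higher and 4 to 5 lower with the siRNA label, and 0 in the direct comparison. Same-numbered libraries correlated at -0.12 to 0.043 in their deviations, within the range of different-numbered ones (-0.155 to 0.182). No pairing by number was seen, but 3 libraries per group cannot exclude one. A replicate block called 11 genes with MK1775 (10 of them shared) and 12 with the siRNA label (12 shared), and none in the direct comparison. The depth is unknown, and levels near 0 FPKM carry no counting limit.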
